A study of Mus musculus with 42 samples.

Results

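The data described here are the RNA-seq libraries of primary aortic endothelial cells kept in culture, 1 from Rbfox2 EC-KO mice and 1 from Rbfox2 control mice. They are 2 of the 42 samples of the series and were chosen by their labels, as the primary cultures of both genotypes that were read 7 days after isolation. The study examined alternative splicing in the endothelium of the mouse carotid artery under altered blood flow, and deleted Rbfox2 to ask what this splicing regulator does there. The cultures address what the deletion does to endothelial cells outside the artery and without flowing blood. RNA of smooth muscle and macrophage genes was measured in them too, as given below. EC-KO mice carried Cdh5(PAC)-CreERT2, a tamoxifen-inducible Cre driven by the promoter of the endothelial cadherin Cdh5, together with Rosa26-mTmG, a reporter of Cre activity, and Rbfox2 lox/lox alleles. Control mice were littermates that carried Rosa26-mTmG and Rbfox2 lox/lox without the Cre, so that the presence of Cre and the loss of Rbfox2 cannot be told apart. Whether controls received tamoxifen is not given in the sources used here, so exposure to it may differ between the cultures too. The mice were adults of both sexes, within several months of age. Cells were flushed from digested aortas, grown on collagen I in medium with serum and an endothelial growth supplement, and sorted after 7 days as CD31+ and Icam2+ cells, a sort that does not use the reporter. Each genotype is 1 culture read as 1 library, so no comparison between them can be tested, and how many mice gave the cells is not given in the sources used here.

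Rbfox2 is an RNA-binding protein that recognises short GCAUG-type motifs in introns near alternative exons. It promotes inclusion of an exon when bound downstream of it and skipping when bound upstream, and it also binds messenger RNA outside the nucleus, where it can alter transcript stability. Its relatives Rbfox1 and Rbfox3 bind the same motif and are best known from muscle and neurons. Its loss can therefore alter which exons a transcript holds, how much of the transcript there is, or both. The values below are amounts of whole transcripts.

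The EC-KO culture had 9931356 counts and the control culture 14556377, so 3 counts, the upper limit that a count of 0 allows, equal 0.302 and 0.206 CPM, counts scaled to a common library total. A ratio is that of counts scaled by TMM, with a prior count of 2 added, and is given as a log2 ratio of EC-KO over control or as a fold. The bounds in parentheses are an exact Poisson 95% interval of the ratio, which covers counting error alone, since amplified reads without molecular identifiers are not independent molecules. Genes with a mean scaled count of at least 50 over both libraries were compared, which left 10234 of 21674 genes. Levels are given as FPKM, fragments scaled to effective transcript length and library total, the scale on which different genes can be compared.

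Rbfox2, which lies at chr15:76909420-77137483 on the minus strand (NCBIM37), had 45 counts in the EC-KO culture and 912 in the control culture. Its level was 0.675 FPKM against 9.33 FPKM, 13.6-fold lower, a log2 ratio of −3.77 (−4.28 to −3.39). Rbfox1 and Rbfox3 had 0 counts in both cultures, which allows at most 0.302 CPM in the EC-KO and 0.206 in the control library. The genotype labels and the level of the targeted gene thus went together, and neither relative was detectable at this depth. Libraries of the carotid intima come from mice with a partial ligation of the left carotid artery, which lowers flow there, and the high-flow artery is the contralateral one of ligated mice. Low-flow and high-flow pools may therefore hold arteries of the same mice, and which pools do is not given in the sources used here. In the intima 7 days after surgery, the same deletion gave Rbfox2 at 0.792 and 1.05 FPKM in EC-KO and 3.66 and 3.84 FPKM in control libraries of the high-flow artery. In the low-flow artery it was at 1.09, 0.169 and 0.623 FPKM in EC-KO and at 3.27, 5.73 and 2.74 FPKM in control libraries. EC-KO and control libraries overlapped in neither artery. The control culture stood above each of the 5 control libraries from the intima, and the EC-KO culture stood within the range of the EC-KO libraries from the intima.

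Both cultures expressed the genes that define endothelium. Of 20 endothelial markers, all were measured past the minimum, and their median log2 ratio was 0.12. Pecam1, which encodes CD31, had 12192 and 17015 counts in the EC-KO and control culture (log2 ratio 0.04, 0.01 to 0.08). Cdh5, whose promoter drives the Cre, had 2724 and 3820 counts (0.04). Cldn5, a tight-junction protein, and Robo4, a receptor of the endothelial surface, were the 2 markers past 2-fold (10.0% of the list, against 2.34% of all genes compared), both higher in EC-KO, with 784 against 519 and 153 against 107 counts. With a minimum of 200 in place of 50, 1 of 19 markers was past 2-fold, against 1.7% of all genes. Smooth muscle genes were present in both cultures and somewhat lower in EC-KO, where 12 listed markers made up 0.525% of counts against 0.650% in the control. Acta2, smooth muscle actin, had 30065 and 61362 counts (log2 ratio −0.51), and Myh11, the smooth muscle myosin, had 19 and 139. Of the 9 markers past the minimum 7 had a log2 ratio below 0, while Tagln, the actin-binding protein transgelin, had 11365 and 15954 counts (0.03) and Synpo2 135 and 172 (0.17). Fn1, which encodes fibronectin, was the gene with the most counts in the EC-KO culture.

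RNA of macrophage genes was a measured difference between the cultures, both of which were sorted as CD31+ and Icam2+ cells. The 14 macrophage markers summed to 21 counts in the EC-KO and 4818 in the control culture, 0.000212% and 0.0331% of all counts. Of the defining markers, Emr1, Itgam, Csf1r and C1qa were at 0 counts in EC-KO and at 72, 63, 48 and 44 in the control, and Ptprc was at 1 and 69. Fcgr1 was at 0 in both. The same markers made up 0.0056% to 0.194% of counts in the libraries from the intima. Lyz2, a lysozyme of macrophages and one of the 14 markers, had 5 and 4166 counts, most of the sum in the control culture. It had the lowest log2 ratio of all genes compared, −8.76 (−10.80 to −7.95). Ctss, a cathepsin abundant in antigen-presenting cells, had 1 and 127 counts. The part of macrophage RNA in the differences below was not tested. Fewer cells of a type and less RNA per cell cannot be told apart in bulk RNA. Neutrophil and lymphocyte markers were nearly missing from both cultures, with 0 and 1 counts and with 0 and 4 counts in sum. Both cultures expressed Xist, at 1107 and 1982 counts, and held 4 and 0 counts of the Y-linked Ddx3y.

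Across the whole transcriptome, few genes differed by much. Of 10234 genes, 460 (4.49%) were 2-fold or more apart, 239 (2.34%) of them higher and 221 (2.16%) lower in EC-KO, and 67 (0.655%) were 4-fold or more apart. The median log2 ratio was −0.01. As a scale for these counts, 2 libraries of the same genotype and flow in the intima differed by 2-fold or more at 3.32% to 31.8% of genes (median 12.0%, 8 pairs). Of these pairs, 1 was below the 4.49% between the cultures and 7 were above, so the count of genes past 2-fold was within the range seen between libraries of 1 group. The top of that range comes from library 1 of the low-flow control, and without it the highest value was 14.1%. The pairs from the intima are pools of arteries, not cultures, and how far 2 cultures of 1 genotype differ was not measured here.

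**Figure D1:**
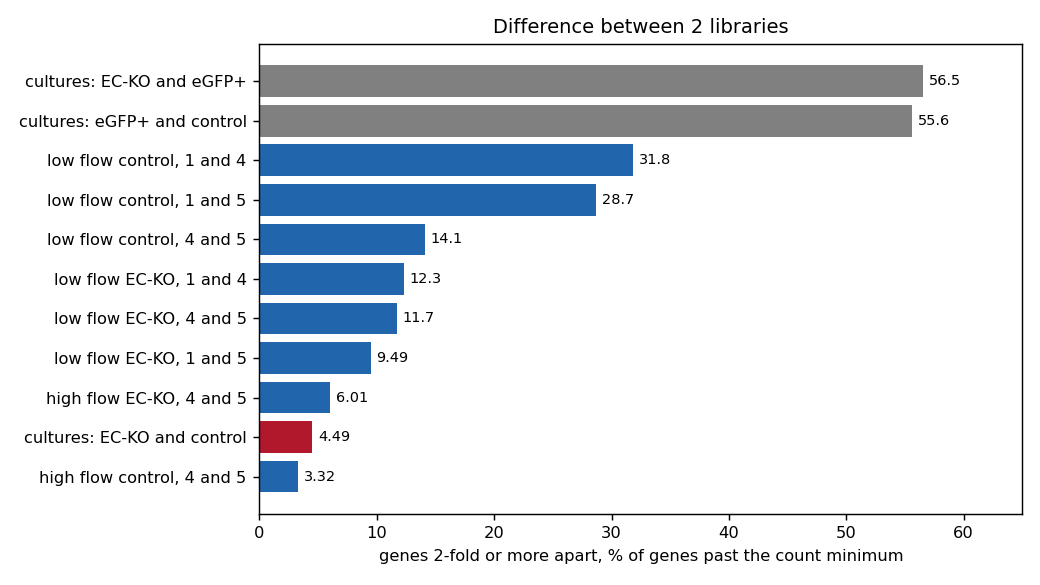
Horizontal bars give the percentage of genes past the count minimum that were 2-fold or more apart between 2 libraries, for the EC-KO and control culture (red), for pairs within a group of the carotid intima at 7 days (blue, with the numbers of the libraries), and for either culture against the eGFP+ culture of the series (grey). The culture pair, at 4.49%, lies between the 2 high-flow pairs, at 3.32% and 6.01%.

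The eGFP+ culture in the plot of library pairs, aortic endothelium from Cdh5(PAC)-CreERT2; Rosa26-mTmG mice sorted on the reporter after 5 days and read as 100 bp reads, differed from the control culture at 55.6% and from the EC-KO culture at 56.5% of genes. Days in culture, sort and read length differ between these libraries and cannot be told apart, so it serves below for levels alone.

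Among the genes lower in EC-KO were 2 of the same family. Fkbp7 (chr2:76501101-76511142, minus strand, same build) and Fkbp14 (chr6:54527598-54547338, minus strand) encode FK506-binding prolyl isomerases of the endoplasmic reticulum, and Fkbp14 is known for its action on collagens. Fkbp7 had 12 counts in the EC-KO and 490 in the control culture, 1.60 against 44.6 FPKM, 25.1-fold lower (log2 ratio −4.65, −5.79 to −4.01). Fkbp14 had 38 and 703 counts, 1.53 against 19.3 FPKM, 12.4-fold lower (−3.63, −4.20 to −3.21). Exons of Fkbp14 overlap those of Plekha8 on the other strand, and Plekha8 had 342 and 480 counts (log2 ratio 0.03). Sspn (chr6:145880161-145913743, plus strand), which encodes sarcospan, a member of the dystrophin complex at the cell membrane, had 0 counts in EC-KO and 357 in the control, and it shares exon sequence with Gm15705 on the other strand. Against the limit of 3 counts it was at least 82.8-fold lower in EC-KO, and the bound of the Poisson interval, which also holds the counting error of the control, was a log2 ratio of −6.07. In the eGFP+ culture, which has Rbfox2 at 5.57 FPKM, these genes were at 61.6 (Fkbp7), 7.08 (Fkbp14) and 2.13 FPKM (Sspn), above the EC-KO culture in each case. Against the control culture, which had Sspn at 5.75 FPKM, Fkbp14 and Sspn were lower there and Fkbp7 was higher.

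**Figure D2:**
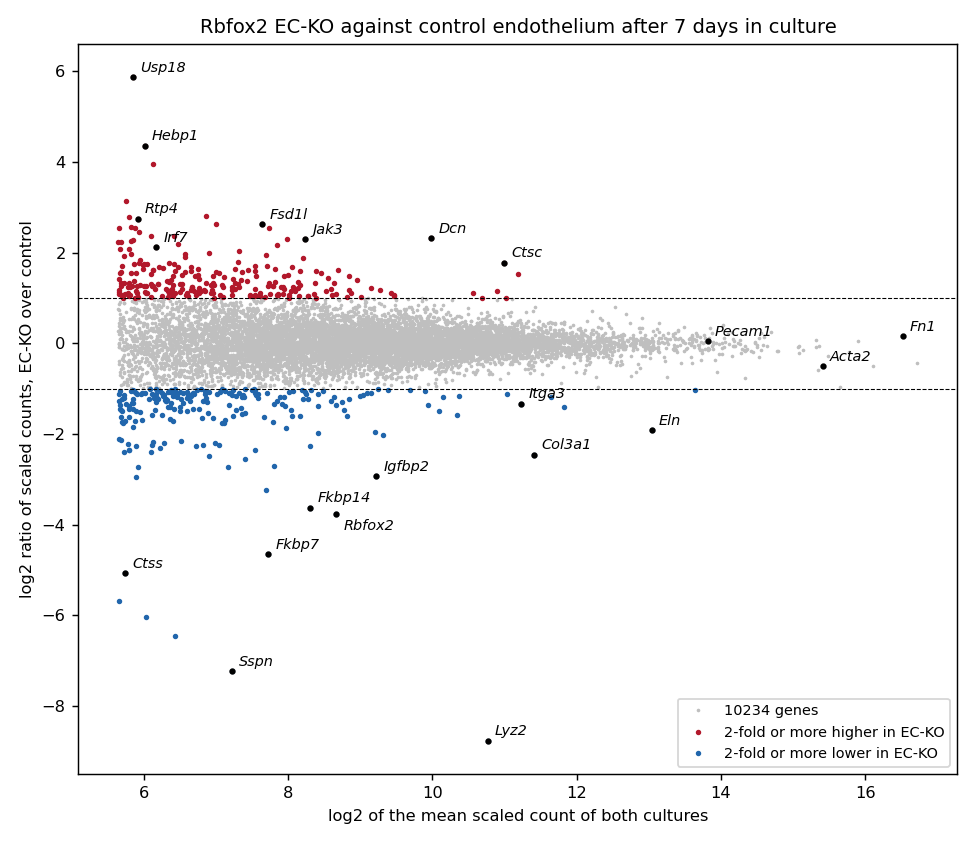
Each point is 1 of 10234 genes, with the log2 of its mean scaled count over both cultures on the horizontal axis and its log2 ratio of EC-KO over control on the vertical axis. Dashed lines mark 2-fold, with 239 genes above and 221 below, and named genes are black.

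Fkbp7, Fkbp14 and Sspn were also lower in the intima of EC-KO mice, in libraries that share no sample with the cultures. Fkbp7 was at 6.21 and 6.27 FPKM in EC-KO and 80.4 and 74.1 FPKM in control libraries of the high-flow artery. At low flow it was at 12.2, 8.18 and 8.41 FPKM in EC-KO and 58.8, 33.1 and 35.0 FPKM in controls. EC-KO was below control without overlap in each artery, though the arteries are not known to come from separate mice. Fkbp7 fell at high flow, by 3.67 on the log2 scale (SE 0.38, adjusted p = 0.0352, edgeR), and had a log2 fold change of −2.10 at low flow (SE 0.29, adjusted p = 0.444, edgeR; 1.95e-07 with DESeq2). Over 10 fits the adjusted p at high flow ranged from 1.19e-17 to 1.00, and leaving out each of the 4 high-flow libraries in turn ended the call in each case, with log2 fold changes of −3.61 to −3.72. Over 13 fits the adjusted p at low flow ranged from 1.95e-07 to 0.955. Fkbp7 was the 1 gene that edgeR called at high flow (0.00749% of the 13352 tested), while the unadjusted p was under 0.05 for 293 genes and DESeq2 called 29. At low flow edgeR called 0 genes (0.0%), while the unadjusted p was under 0.05 for 880 and DESeq2 called 11. Without library 1 of the low-flow control, which stands apart from the other controls, edgeR called 1476 genes at low flow. These p-values measure the spread between libraries of pooled arteries. The edgeR values come from a fit without pairing by library number. With a block for the number, edgeR gave Fkbp7 an adjusted p of 0.0908 at low flow.

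Sspn was at 4.33 and 5.60 FPKM in EC-KO and 20.2 and 25.8 FPKM in control libraries at high flow. At low flow it was at 7.19, 3.86 and 3.19 FPKM in EC-KO and 23.1, 10.8 and 11.5 FPKM in controls. Thus EC-KO was below control in the culture and in both arteries, with log2 fold changes of −2.25 (SE 0.47, adjusted p = 1.00, edgeR; 0.00772 with DESeq2) at high and −1.63 (SE 0.38, adjusted p = 0.692, edgeR; 0.0509 with DESeq2) at low flow. Fkbp14 was at 1.32 and 1.71 FPKM in EC-KO and 11.9 and 7.32 FPKM in controls at high flow. At low flow it was at 6.10, 1.33 and 0.346 FPKM in EC-KO and 13.5, 11.6 and 11.3 FPKM in controls, again without overlap. In the edgeR fit of all libraries neither gene passed the threshold in either artery. Sspn passed it at high flow with a block for the library number (adjusted p = 0.0493) and at low flow without control library 1 (0.0485), and both genes passed it at low flow without the libraries numbered 1 (0.0354 for Sspn and 0.0357 for Fkbp14). Over the fits tried, the adjusted p of Sspn ran from 0.00772 to 1.00 at high and from 0.0354 to 0.965 at low flow, and that of Fkbp14 from 0.255 to 1.00 and from 0.0357 to 0.965.

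**Figure D3:**
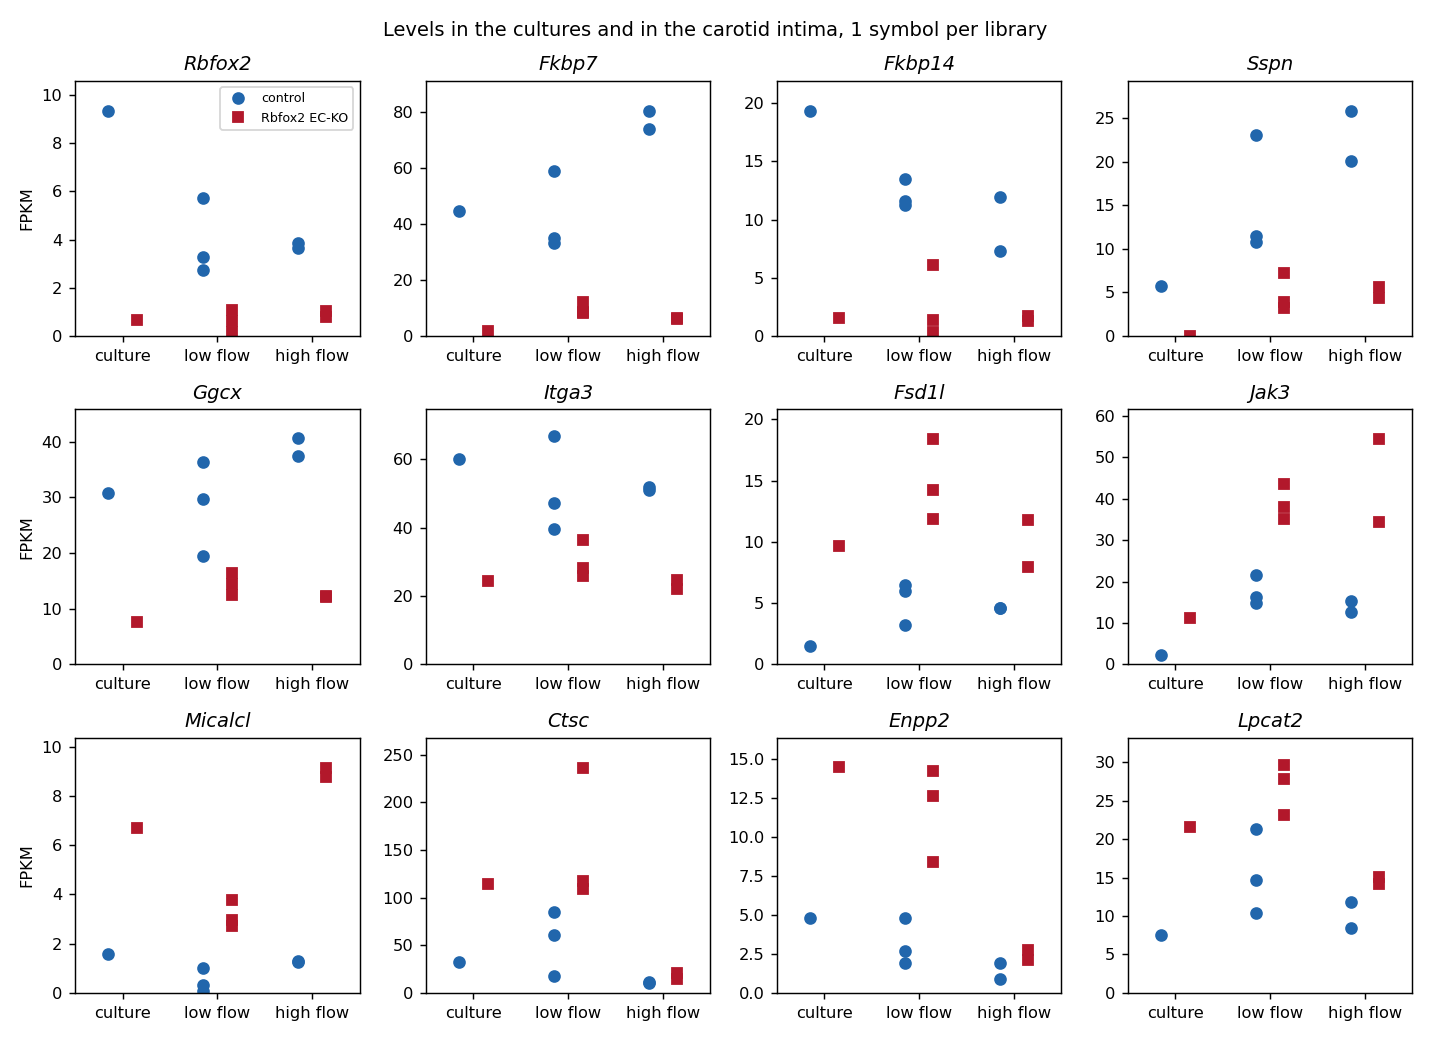
Panels give the FPKM of 12 genes in each library, with control libraries as blue circles and EC-KO libraries as red squares, for the cultures (1 library each), the low-flow artery (3 each) and the high-flow artery (2 each). The genes were taken from those past 2-fold in culture and without overlap in the same direction in both arteries. By that choice, the EC-KO symbols are on the same side of the control symbols throughout each panel.

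Genes past 2-fold in culture were then counted for whether the EC-KO and control libraries of the intima also stood apart, without overlap at low and at high flow. Of 216 genes lower in culture and measured in the intima, 11 (5.09%) were lower there in both arteries, against 76 of 10190 genes (0.746%). Of 233 genes higher in culture, 7 (3.00%) were higher in both arteries, against 85 of 10190 (0.834%). In the opposite direction there were 0 of the 233 higher genes and 1 (0.463%) of the 216 lower genes. Without library 1 of the low-flow control, a choice made after seeing the data, 13 of 216 (6.02%) and 26 of 233 (11.2%) stood apart in the same direction, against 4.46% and 4.73% of all genes, and in the opposite direction 8 of 216 (3.7%) and 3 of 233 (1.29%). These shares are descriptions, and those over all libraries concern 18 genes, with Rbfox2 among them.

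Of the other genes lower in all 3 settings, Ggcx had the lowest ratio in culture. Ggcx, the vitamin K-dependent gamma-carboxylase, had 208 and 1232 counts in the EC-KO and control culture (log2 ratio −2.03, −2.26 to −1.83). In the intima it was at 12.3 and 12.1 FPKM in EC-KO and 37.4 and 40.7 FPKM in controls at high flow. Its low-flow libraries were at 14.4, 16.4 and 12.5 FPKM in EC-KO and 29.7, 19.4 and 36.4 FPKM in controls. Itga3, the laminin-binding integrin alpha 3, had 1138 and 4114 counts (−1.33, −1.43 to −1.24). Its FPKM at high flow was 24.6 and 22.2 in EC-KO and 52.0 and 50.9 in controls, and at low flow 36.5, 25.8 and 28.1 in EC-KO and 66.7, 39.6 and 47.1 in controls. St3gal1, a sialyltransferase, had 335 and 977 counts (−1.02), with log2 fold changes of −0.64 at low and −1.34 at high flow. Layn, a hyaluronan receptor, had 28 and 126 (−1.59), and its fold changes were −0.72 and −0.21, the latter from 11.4 and 11.5 FPKM in EC-KO against 13.1 and 12.6 FPKM in controls. The remaining 3 were Tmem87a, Tubgcp4 and Ears2, with log2 ratios of −1.47, −1.19 and −1.02 in culture, and each of these shares exon sequence with a gene on the other strand. At high flow DESeq2 called Ggcx (adjusted p = 0.00246) and Itga3 (adjusted p = 0.021), while edgeR gave an adjusted p of 1.00 for both and values up to 1.00 over 10 fits.

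Of the 7 genes higher in all 3 settings, Fsd1l had the highest ratio in culture. It had 287 counts in the EC-KO and 65 in the control culture (log2 ratio 2.62, 2.27 to 3.08). In the intima Fsd1l was at 7.96 and 11.8 FPKM in EC-KO and 4.58 and 4.57 FPKM in controls at high flow, and at 11.9, 18.4 and 14.2 against 6.52, 6.02 and 3.20 FPKM at low flow. DESeq2 called Fsd1l at low flow (adjusted p = 0.0133) and not at high flow (0.814), and edgeR called it in neither artery (0.692 and 1.00), with ranges of 0.0133 to 0.965 over 13 fits and 0.574 to 1.00 over 10 fits. Jak3, a tyrosine kinase of cytokine receptors, had 417 and 120 counts in culture (2.29, 2.02 to 2.63). Its FPKM was 54.4 and 34.3 in EC-KO against 15.4 and 12.7 in controls at high flow, and 38.0, 43.7 and 35.0 against 14.8, 21.6 and 16.3 at low flow. Jak3 was called by DESeq2 in both arteries (adjusted p = 0.00149 at high and 0.0118 at low flow) and by edgeR in neither (1.00 and 0.692), with ranges of 0.00149 to 1.00 over 10 fits and 0.0118 to 0.965 over 13 fits. Insl3, which shares exon sequence with Jak3 on the same strand, had under 1 estimated count in each culture.

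Ctsc, the lysosomal protease cathepsin C, had 2640 and 1104 counts (log2 ratio 1.78, 1.68 to 1.88), and its FPKM was 114 in the EC-KO and 32.6 in the control culture. At low flow it was at 109, 236 and 117 FPKM in EC-KO and 61.0, 85.3 and 17.9 FPKM in controls, and at high flow at 21.0 and 14.9 against 11.8 and 10.1. Enpp2, which encodes autotaxin, the enzyme that makes lysophosphatidic acid, had 438 and 212 counts (1.56), with 8.38, 14.2 and 12.6 FPKM in EC-KO and 4.78, 1.90 and 2.70 FPKM in controls at low flow. At low flow Enpp2 had an adjusted p of 0.0196 with DESeq2 and 0.692 with edgeR (0.0173 to 0.965 over 13 fits), and at high flow 1.00 with both. Both genes had no overlap between genotypes in either artery. Their log2 fold changes were 1.54 and 1.94 at low flow and 0.66 and 0.77 at high flow, a difference that was not tested. Lpcat2, an acyltransferase that makes platelet-activating factor, had 568 and 290 counts (1.49), Micalcl 160 and 56 (1.99) and Zfp93 132 and 83 (1.17), the last with a log2 fold change of 0.95 at low and 0.21 at high flow. Over 10190 genes, log2 ratios in culture and log2 fold changes in the intima correlated with a Pearson r of 0.114 for low and 0.0525 for high flow, a description over genes that share libraries and are not replicates.

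Interferon-stimulated genes were higher in the EC-KO culture as a group. These genes carry out antiviral and cell-autonomous defence and are induced through a complex of transcription factors that includes Irf9 and binds a promoter element of repeated GAAA units. Of 32 listed genes, 22 passed the minimum, and of these 10 (45.5%) were 2-fold or more higher and 0 were lower, against 2.34% higher and 2.16% lower among all genes compared. All 22 had a log2 ratio above 0, against 4983 of all 10234 genes, and their median was 0.74, against −0.01 for all genes. The minimum is a mean over both cultures, and 6 of the 10 genes past 2-fold were below it in the control culture and reached it through the EC-KO culture, so these counts are a description. Of the 16 genes that reached it in the control culture too, 4 were past 2-fold. The size depended on the count minimum. With a minimum of 200, 11 genes were left, 2 of them past 2-fold, against 1.7% of all genes, and the median of the 11 was 0.26. The listed genes made up 0.0730% of counts in the EC-KO and 0.0488% in the control culture. The 10 genes past 2-fold had at most 16.4 FPKM in the EC-KO culture.

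Usp18, a protease that removes the ubiquitin-like Isg15 and restrains interferon signalling, had 96 counts in the EC-KO culture and 0 in the control, at least 46.0-fold higher against the limit of 3 counts, with a Poisson bound of 5.20 on the log2 ratio. Rtp4 had 89 and 17 counts (log2 ratio 2.75, 2.15 to 3.75), and Ifit1, which binds viral RNA, had 81 and 22 (2.28, 1.71 to 3.16). Oas1a, a 2′-5′ oligoadenylate synthetase, had 123 and 37 counts (2.19). Higher by a smaller ratio were the transcription factors of the response, Irf7 with 99 and 31 counts (2.12) and Irf9 with 359 and 170 (1.59). The GTPases Iigp1 and Igtp had 220 against 102 and 160 against 76 counts (1.61 and 1.57). Irf1 had 554 and 781 (0.03, −0.13 to 0.19) and Irgm1 752 and 1052 (0.04, −0.10 to 0.18). Among the 10 genes under the minimum, Mx1, Mx2 and Oas2 were at 0 in both cultures, and Rsad2 was at 28 and 0 counts. Exons of Irf7 overlap those of Phrf1 on the other strand, which had 967 and 1110 counts (0.32).

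**Figure D4:**
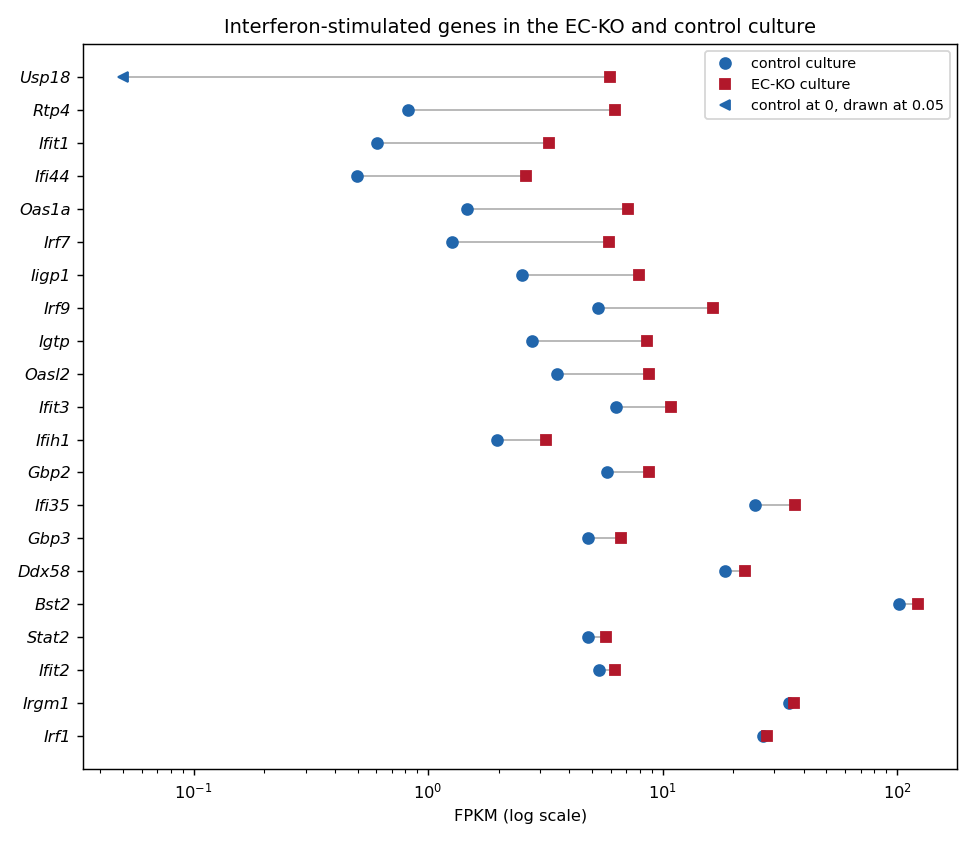
The FPKM of 21 of the 22 interferon-stimulated genes past the count minimum is shown on a log axis for the control culture (blue circles) and the EC-KO culture (red squares), in the order of their log2 ratio. Usp18 had 0 counts in the control and is drawn at the left edge as a triangle, and the symbols of Irf1 and Irgm1 nearly coincide.

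The promoters of 3 of these genes show what their shared element looks like. RefSeq promoter sequences (GRCm38.p6) were found for 24 of the 32 genes, and 250 bases upstream of each start were searched for GAAANNGAAA on both strands, with overlapping matches counted. It was present in 13 of the 24 (54.2%), against 936 of 27025 genes with a promoter sequence (3.46%). It was in 3 of the 7 interferon-stimulated genes 2-fold higher in EC-KO that have a sequence (42.9%) and in 6 of the 11 that stayed within 2-fold (54.5%), so the element did not separate the 2 sets. Among all genes higher or lower in the EC-KO culture it was in 9 of 173 (5.2%) and 4 of 142 (2.82%). A match is a description of letters, not a bound site. The 150 bases upstream of the 3 higher genes that hold it are printed 5′ to 3′ on the strand of the gene, with matches in capitals.
Ifit1, chr19:34640739-34640888, plus strand: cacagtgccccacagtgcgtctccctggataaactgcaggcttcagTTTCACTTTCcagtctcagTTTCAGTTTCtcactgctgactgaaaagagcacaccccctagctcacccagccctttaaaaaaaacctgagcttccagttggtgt
Oas1a, chr5:120907526-120907675, minus strand: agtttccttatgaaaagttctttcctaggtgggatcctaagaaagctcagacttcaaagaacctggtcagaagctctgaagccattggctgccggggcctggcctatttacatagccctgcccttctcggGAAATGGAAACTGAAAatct
Igtp, chr11:58199406-58199555, plus strand: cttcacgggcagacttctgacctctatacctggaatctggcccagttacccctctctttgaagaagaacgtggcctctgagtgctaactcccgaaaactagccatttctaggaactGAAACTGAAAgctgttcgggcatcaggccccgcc
In Ifit1 the element is read on the opposite strand and occurs 2 times, and in Oas1a 2 matches overlap.

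In the intima, 27 of the 32 interferon-stimulated genes had a log2 fold change above 0 at low flow and 22 at high flow. Among all 13352 genes tested, 6178 and 6968 were above 0. The medians of the 32 genes were 0.50 and 0.10, against −0.04 and 0.02 for all genes, and edgeR called 0 of the 32 in either artery. The unadjusted p was under 0.05 for 4 of them at low and 2 at high flow, against 6.59% and 2.19% of all genes tested. DESeq2 called 1 in each artery, Irf1 at low and Cxcl10 at high flow, against 0.0778% and 0.225% of all genes it tested. As shares of counts at low flow, the 32 genes made up 0.286%, 0.334% and 0.461% in EC-KO and 0.311%, 0.160% and 0.169% in control libraries. At high flow the shares were 0.1765% and 0.294% in EC-KO and 0.191% and 0.187% in controls. The genotypes thus overlapped in both arteries. The 14 macrophage markers had a median log2 fold change of 0.72 at low and 0.85 at high flow, and edgeR called 0 of them in either artery. They made up 0.110%, 0.194% and 0.138% of counts in the EC-KO and 0.0542%, 0.189% and 0.0369% in the control libraries at low flow, where the groups overlapped. At high flow the shares were 0.0242% and 0.0110% in EC-KO and 0.0148% and 0.00560% in controls, overlapping as well. Their part in the interferon values was not tested. In the eGFP+ culture Usp18, Rtp4 and Irf7 were at 6.79, 21.7 and 5.56 FPKM, and in the EC-KO culture at 5.94, 6.28 and 5.91 FPKM. The untreated aortic endothelial cell line of the series, a single library, had 103, 145 and 72.9 FPKM. The control culture, with 0, 0.818 and 1.26 FPKM, was lower still, which for these 3 genes follows in part from their choice by the ratio of EC-KO over control. The whole list made up 0.0896% of counts in the eGFP+ culture, 0.424% in the cell line, 0.0730% in the EC-KO and 0.0488% in the control culture.

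Genes of MHC class I presentation, which interferons also induce, had smaller ratios in the same direction. Of 19 listed, 15 passed the minimum and 0 were past 2-fold, against 4.49% of all genes compared. All 15 had a log2 ratio above 0 (14 under upper quartile scaling, where H2-T23 was the exception), against 4983 of all 10234 genes. Their median was 0.32. Tap1, a peptide transporter, had 527 and 433 counts (0.80, 0.62 to 0.99), the immunoproteasome subunit Psmb8 had 392 and 322 (0.80), and B2m, the light chain of class I molecules, had 9485 and 11605 (0.23). Of 8 class II genes 2 passed the minimum, H2-DMb1, higher with 120 and 72 counts (1.23), and Ctss, lower with 1 and 127 as given above. Below the minimum, H2-Ab1 had 52 and 12 counts and H2-DMa 10 and 21. Apol9a, also known as an interferon-induced gene, had 82 and 11 counts (3.14, 2.51 to 4.48) and lies 96736 bases beyond the 5′ end of Rbfox2 on chromosome 15.

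Genes with Rbfox2-regulated exons held none past 2-fold. Of 74 genes listed for Rbfox2-regulated exons, 71 passed the minimum, 0 were 2-fold higher and 0 lower, against 2.34% and 2.16% of all genes compared, and the log2 ratios ran from −0.64 for Tpm1 to 0.72 for Add3, with a median of 0.03. With the minimum of 200, which 68 of the 71 passed, 1.7% of all genes were past 2-fold, so a count of 0 is near the general share. The study chose that list on these samples, the cultures included, and on exon inclusion, not on amount. Fn1, fibronectin, had 82328 and 106240 counts (0.16, 0.14 to 0.17). The matrix genes Fbln2 and Mfge8 had log2 ratios of 0.06 and −0.16, and Gpr116 and Ceacam1 −0.18 and 0.16. In the EC-KO culture Fn1 was at 1015 FPKM, against 894 FPKM in the control. The inclusion of single exons was not analysed here.

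Other splicing regulators differed by 2-fold about as seldom as genes in general. Of 55 listed, 48 passed the minimum, 0 were higher and 1 (Ptbp2, 2.08%) was lower by 2-fold, against 2.34% and 2.16% of all genes compared, and the median log2 ratio was −0.04. Ptbp2, the neuronal relative of the polypyrimidine tract-binding protein, had 52 and 258 counts (−1.75, −2.25 to −1.35). Its paralogue Ptbp1 had 4704 and 6217 counts (0.12). Mbnl1, Celf2 and Qk, regulators of many alternative exons in muscle, had log2 ratios of −0.01, 0.09 and −0.46. Nova2, known in endothelium for splicing of polarity genes, had 80 and 63 counts (0.84, 0.37 to 1.37).

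Some genes were also assayed by qPCR in single arteries. Of these 12 genes, 8 passed the minimum in culture, 3 were 2-fold higher and 1 lower, against 2.34% and 2.16% of all genes compared. With the minimum of 200, 6 were left, 1 higher and 1 lower, against 69 and 62 of all 7709 genes past that minimum. Fkbp7 was the lower gene. Ly6a, a surface protein also called Sca-1, had 249 and 147 counts (1.27, 0.98 to 1.59). Serping1, the C1 inhibitor of the complement system, had 127 and 77 counts (1.22), and Clic5, a chloride channel protein, 88 and 50 (1.30), which was below the minimum in the control culture and reached it through the EC-KO culture. Nfkbia, Mmrn2, Psen2 and Ly6e were within 2-fold, with log2 ratios of −0.13, 0.01, 0.22 and 0.22. These genes were picked from libraries of the intima, so their direction there is no independent evidence.

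Among matrix genes, Eln, Col3a1 and Lox were lower in the EC-KO culture. Of 40 listed, 32 passed, 0 were higher and 3 (9.38%) lower by 2-fold, against 2.34% and 2.16% of all genes compared, and the median log2 ratio was −0.12. Eln, which encodes elastin, had 2930 and 15939 counts (−1.92, −1.98 to −1.86), Col3a1, a fibrillar collagen, had 697 and 5501 (−2.45, −2.57 to −2.34), and Lox, which cross-links elastin and collagen, had 1626 and 5336 (−1.19). The fibrillar collagen gene Col1a2, with 778 and 1106 counts, had a log2 ratio of 0.02, and the fibulin Fbln1 one of 0.29. The basement membrane collagens Col4a1 and Col4a2 had log2 ratios of 0.05 and 0.09. Fibroblast and smooth muscle genes stood on both sides beside these: Pdgfra had 5 and 83 counts, Lum 2 and 27 and Myh11 19 and 139, while Dcn, the small proteoglycan decorin, was higher with 1404 and 404 (2.31, 2.16 to 2.48) and Pdgfrb had a log2 ratio of 0.26. The part of such cells in the matrix values was not tested. In the intima, Eln was lower without overlap at high flow and overlapped at low flow, and Col3a1 overlapped in both arteries.

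Adhesion receptors and vessel growth genes gave mixed values. Of 12 integrins past the minimum, Itgb3 (419 and 198 counts, 1.59) and Itga8 (161 and 97, 1.23) were higher and Itga3 lower by 2-fold, where among all genes compared 2.34% were higher and 2.16% lower. With the minimum of 200, 9 integrins were left, 1 higher and 1 lower, against 69 and 62 of all 7709 genes past that minimum. Itgb1, the shared beta subunit, had 28304 and 42141 counts (−0.05). Among 18 genes of arterial identity and Notch, 2 (11.1%) were higher by 2-fold and 0 lower, against 2.34% and 2.16% of all genes compared. These were the ligands Jag2 (70 and 22 counts, 2.08) and Dll4 (794 and 548, 1.06), while Jag1 and Hey1 had log2 ratios of −0.48 and −0.60. Jag2 was below the minimum in the control culture and reached it through the EC-KO culture. With the minimum of 200, 1 of 15 genes was higher, against 69 of all 7709 genes past that minimum. Of 19 tip cell and angiogenic genes, 3 (15.8%) were higher and 0 lower by 2-fold, against 2.34% and 2.16% of all genes compared. Among the higher ones, Pgf, the placental growth factor, had 286 and 130 counts (1.64). Angpt2, a ligand of the receptor Tek, had 1836 and 1314 (1.01, 0.90 to 1.11). Of 11 genes of venous and lymphatic identity 4 passed the minimum, 1 with a log2 ratio above 0 and 3 below (median −0.14), and Nrp2 was lower by 2-fold, with 86 and 276 counts (−1.14).

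Few genes that respond to flow, inflammation or growth were past 2-fold, and with 4.49% of all genes past it, counts of 0 or 1 in lists of this size are near the background. Of 15 flow-responsive genes 1 (Angpt2) was past it, and the flow-induced factors Klf2 and Klf4 had log2 ratios of −0.72 and −0.66, with 512 against 1218 and 118 against 269 counts. Ctgf had 28880 and 81202 counts (−0.97). All 15 NF-kB genes were within 2-fold (median −0.12), with 11 log2 ratios below 0 and 4 above. Of 11 adhesion molecules and chemokines, Cxcl2 was lower, with 77 and 247 counts (−1.14), and Icam1, Vcam1 and Sele had log2 ratios of −0.24, −0.43 and 0.15. Of the cell cycle lists, 0 of 24 genes of S phase and 0 of 25 of mitosis were past 2-fold, with medians of 0.10 and 0.06. The 25 genes of TGF-beta signalling and mesenchymal change, the 21 of hypoxia and glycolysis and the 21 of endoplasmic reticulum stress gave 0 genes past 2-fold and medians of 0.02, −0.16 and −0.11. Of the hypoxia and glycolysis genes, 19 had a log2 ratio below 0 and 2 above, against 5251 and 4983 of all 10234 genes. Small ratios on 1 side of 0 were thus not limited to the interferon and MHC class I lists.

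**Figure D5:**
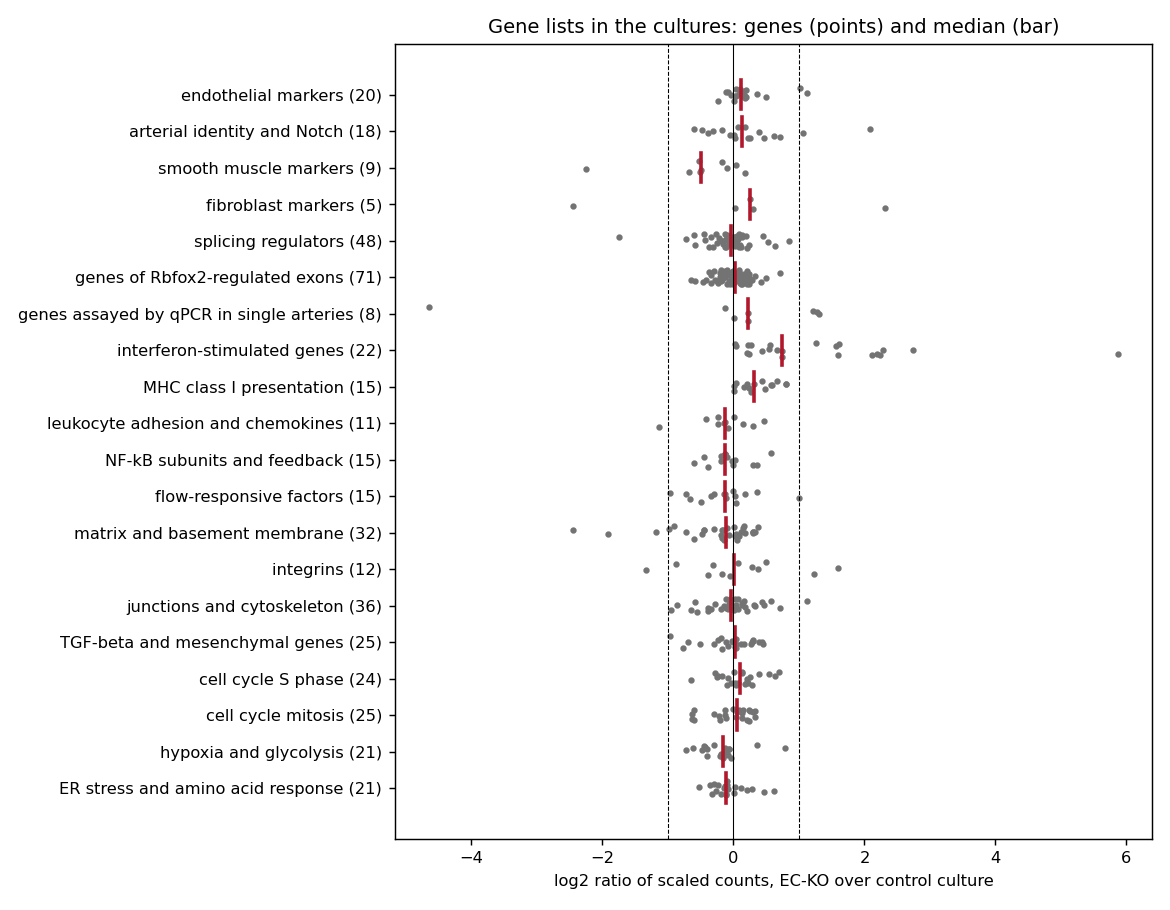
Each row is a list of genes with the number past the count minimum, each point is the log2 ratio of 1 gene, EC-KO over control culture, and the red bar is the median of the list. Dashed lines mark 2-fold, and the interferon-stimulated genes have a median of 0.74, while the other lists shown have medians from −0.49 to 0.32.

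Further genes were named for their ratio. Hebp1, a heme-binding protein, had 104 and 5 counts (4.36, 3.63 to 6.56), and Esr1, the estrogen receptor alpha, had 303 and 73 (2.54, 2.20 to 2.97). Cxadr, the coxsackievirus and adenovirus receptor of cell junctions, had 389 and 150 counts (1.88), and Krt19 had 314 and 99 (2.16). Fndc1 and Arhgap27 had log2 ratios of 2.29 and 1.94. On the lower side, Igfbp2, a binding protein of insulin-like growth factors, had 114 and 1269 counts (−2.93, −3.24 to −2.68), and Pcsk6, a proprotein convertase, had 40 and 348 (−2.55). Rasa4, a Ras GTPase-activating protein, had 48 and 465 counts (−2.71), and D4Bwg0951e had 90 and 628 (−2.26). In the intima, EC-KO and control libraries overlapped for Hebp1, Igfbp2, Pcsk6, Rasa4 and D4Bwg0951e at both flows.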

How the data were processed

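RNA was sequenced from the 2 cultures and from pools of carotid intima as 150 bp paired reads after SMARTer low-input amplification. The authors mapped reads with STAR 2.5.1b and estimated expression with RSEM 1.2.15 on an mm9 annotation, per their processing notes and methods. They deposited 1 table of expected counts per gene, not normalized, with RPKM columns for some libraries. The options their methods list for RSEM name no strand setting, so reads of overlapping genes on opposite strands were not taken to be told apart. Of 21675 entries, 1 without a name was left out. Of 204 value columns, 17 were used and 187 were not.

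Expected counts were rounded for edgeR 4.0.16 (filterByExpr, TMM, quasi-likelihood test, Benjamini-Hochberg over all genes, 4 groups of the intima fitted together, threshold 0.05) and for DESeq2 1.42.0, in R 4.3.3. Other values were computed in Python 3.11.15 from the unrounded counts. The RPKM that the authors deposited were 1.07 times the FPKM computed here at the median. The fit was tested on simulated data first. Libraries of the intima with equal column numbers deviated together at low flow (correlations of 0.49, 0.17 and 0.27 over genes). A fit with a block for the number was therefore run too, and edgeR values without a named block do not pair the libraries. With the block, the adjusted p at low flow (edgeR) was 0.0908 for Fkbp7, 0.195 for Sspn and 0.208 for Jak3. Column numbers 4 and 5 are not tied to replicate numbers of the labels. Columns of 1 control and 1 EC-KO low-flow library are marked as repeats. Gene coordinates follow NCBIM37 (mm9) and promoters GRCm38.p6.

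Genes were named by rule: the Rbfox family, the 15 highest and 15 lowest ratios among genes of at least 5 FPKM in either culture, genes the study names for Rbfox2, and the extreme and most abundant members of each list. The genes that stood apart in culture and in both arteries were named after their values were seen. The members and lists were chosen with earlier results of these data known. Alternatives tried were other scalings, prior counts and count minimums, RPKM, other tests, and each library left out. Some genes are not reported here.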

Additional observations from a re-analysis of the deposited data

Results flagged for a closer look

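For 7 genes of those named by rule, the cultures and 1 artery went in opposite directions, with every library of one genotype on one side, and these differences were not tested. Fam189a2 had 32 counts in the EC-KO and 451 in the control culture (log2 ratio −3.23), while both EC-KO libraries of the high-flow artery were above both controls, with a log2 fold change of 0.93. Cd80, a co-stimulatory ligand of antigen-presenting cells, had 29 and 245 counts in culture (−2.49) and a log2 fold change of 1.75 at high flow. Purb, a single-stranded nucleic acid binding protein, had 14 and 113 counts (−2.36) and a log2 fold change of 1.41 at high flow. Angpt2, Pgf and Jag2 were 2-fold or more higher in the EC-KO culture and had log2 fold changes of −1.31, −1.15 and −0.78 at high flow. Cxcl2 was lower in the EC-KO culture and had a log2 fold change of 2.21 at low flow. In the other artery the groups overlapped for each of the 7. Each genotype had 2 libraries at high flow and 3 at low flow, and fewer libraries stand apart without overlap more often by chance. The shares that follow can therefore be compared with all genes of the same artery, but not between the arteries. Of 216 genes lower in culture, 40 (18.5%) were higher without overlap at high flow, against 2243 of all 10190 genes, and of 233 higher in culture 29 (12.4%) were lower, against 1699 of 10190 (16.7%). At low flow 5 of the 216 (2.31%) were higher, against 335 of 10190 (3.29%), and 2 of the 233 (0.858%) were lower, against 489 (4.80%).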

How the results depend on the processing

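Of 1315 recalculated culture ratios of 263 named genes, 4 changed sign, those of H2-T23, Edn1 and Tpm3, whose log2 ratios lay within 0.028 of 0. Mbnl1 went from −0.01 to 0.02 when scaled by total counts. Of 305 for genes past 2-fold 297 stayed past it. The count of genes past 2-fold was 460 and ran from 386 to 466 under other scalings, a prior count of 10 and RPKM. It was 1068 with a minimum mean scaled count of 10 and 131 with one of 200. For 4-fold the counts were 321 and 15 instead of 67, and between libraries of 1 group in the intima the median share past 2-fold was 7.03% with the minimum of 200. Of the interferon-stimulated genes 10 were past 2-fold under each scaling, the prior count of 10 and RPKM, and 12 of 26 and 2 of 11 under the minimums of 10 and 200. At low flow edgeR called 0 genes, DESeq2 called 11, and leaving out single libraries gave 0 to 1476, the highest without control library 1. Without both libraries numbered 1, a choice made after seeing the data, edgeR called 374. With the replicate block it called 0 at low flow and 4 at high flow, where 2 pairs are too few to show a pairing (correlation 0.19), Sspn (adjusted p = 0.0493) and Fkbp7 (0.00698) among them. The block changed no call at low flow. At high flow edgeR called 1, DESeq2 29, and leaving out single libraries gave 0 to 0. Of 378 recalculated fold changes of named genes in the intima, 0 reversed, 23 became significant and 4, those of Fkbp7 at high flow without 1 library, lost significance. The causes were not tested. Counts under about 50, 1 culture per genotype and counting without a stated strand setting limit the single ratios.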

Other observations

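Some values outside the comparisons above bear on the cell types of the cultures. Of 10 fat cell markers 0 passed the minimum, with 49 counts in sum in the EC-KO and 32 in the control culture, and the 10 platelet markers summed to 191 and 248 counts. Of 8 mesothelial markers, Msln, Upk1b, Wt1, Lrrn4 and Krt8 were at 0 in both cultures, while the keratins Krt18 and Krt19 had 2222 against 2852 and 314 against 99 counts. Nr2f2, a factor of venous identity, had 31 and 3 counts and Prox1, a factor of lymphatic identity, 5 and 0, while Lyve1, another lymphatic gene, had 7 and 14, all below the minimum. Madcam1, an adhesion molecule of mucosal vessels, had 17 and 0 counts. The hypoxia gene Car9 had 44 and 16 counts and Hk2, a hexokinase, 0 and 25.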
